A study of Rattus norvegicus with 6 samples.

Results

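Spp1, Anxa4, Mapt and Sox2 are the transcripts used to tell apart the HC subtypes of the vestibular sensory epithelium, and they were taken here by name as 4 of the 32883 genes in the count table. Spp1 (secreted phosphoprotein 1, osteopontin, ENSRNOG00000043451) is the type I HC marker of the set. Anxa4 (annexin A4, ENSRNOG00000018159), Mapt (tau, ENSRNOG00000005133) and Sox2 (ENSRNOG00000012199) are its type II HC markers. The question put to the data was whether the type I transcript and the type II transcripts moved apart in rats given a chronic ototoxic aminoglycoside.

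The Control group held 3 Long-Evans rats injected with phosphate-buffered saline, and the STREP group held 3 Long-Evans rats that received streptomycin at 500 mg/kg subcutaneously each day for 6 weeks, from postnatal day 21 on. Every animal of both groups was therefore a growing rat, and each group had 2 males and 1 female, the female being replicate 3 in each. The 2 utricles and 6 cristae of an animal were pooled into a single library, so each value below belongs to 1 animal and the p-values reflect the spread between animals. No comparison of sex or of end organ has replicates in this design.

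Vestibular HCs convert head movement into transmitter release. The type I HC is wrapped by a calyx-shaped afferent ending, whereas the type II HC is contacted by small bouton endings, keeps basolateral processes, and receives direct efferent cholinergic synapses. Osteopontin is a secreted, integrin-binding phosphoprotein that labels the neck of mature type I HCs, and it is also made by bone cells, activated macrophages and Schwann cells. Annexin A4 is a calcium-dependent phospholipid-binding protein found at the type II HC membrane. Tau binds and stabilises microtubules and is abundant in axons as well. Sox2 is the transcription factor that specifies the prosensory domain, and it is kept in type II HCs and in supporting cells of the mature organ. Aminoglycosides enter HCs through the transduction channel, and type I HCs are commonly described as the more sensitive type.

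The 6 libraries held 29333584 to 59906048 counts, with the 3 Control libraries deeper than the 3 STREP libraries. All 4 genes were far above the floor that 3 counts set, which lay between 0.0501 and 0.102 CPM (counts scaled to a common library total). The libraries differed in composition. The 100 most abundant genes took 31.9, 37.4 and 38.7% of all Control counts, in the order of the replicates, while the STREP shares were 34.9, 29.1 and 43.8%. STREP replicate 3 thus stood apart with the most concentrated library and the lowest size factor of all 6 (0.669), although its total was the highest of its group. Size factors rest on the ratios of most genes and CPM on the library total, so the 2 scales place this library differently, and results that turn on it are given with and without it. General HC transcripts were well counted in both groups: the mean normalised counts were 4896 ± 502 (Control) and 3482 ± 245 (STREP) for Myo7a (an unconventional myosin of HCs; log2 fold change -0.49, DESeq2 adjusted p = 0.0162, under the fold threshold), and 28893 ± 628 and 25605 ± 3132 for Otof (otoferlin, the calcium sensor of the HC synapse; SD, n = 3).

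None of the 4 subtype transcripts passed the study's test, which asks for a DESeq2 adjusted p under 0.05 and a change of more than 1.5-fold (0 of 4 members; 3.24% of the 16250 genes tested passed, 1.37% lower and 1.87% higher). At an unadjusted p under 0.05 DESeq2 picked 0 of 4 and edgeR 0 of 4, against 12.2% of all genes in the DESeq2 fit. In normalised counts, 0 of 4 had groups that did not overlap, against 17.8% of all genes. On the CPM scale Spp1 alone of the 4 did not overlap, against 11.8% of all genes. The type I transcript was estimated lower and the 3 type II transcripts lay within 0.08 of 0 on the log2 scale, as the plot of values by animal shows.

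**Figure D1:**
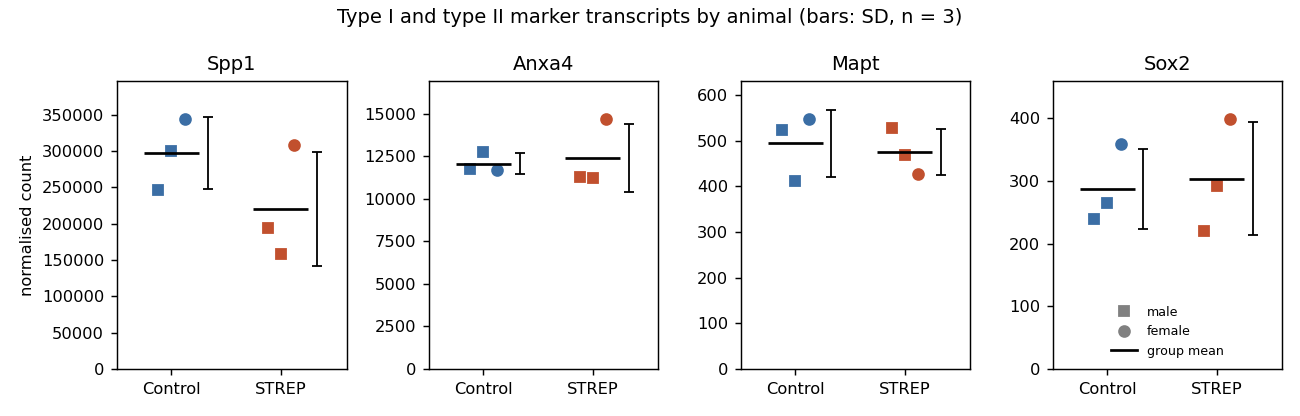
Normalised counts of Spp1, Anxa4, Mapt and Sox2 (vertical axes, linear and from 0) in each of the 3 Control and 3 STREP animals. Squares are males, circles females, horizontal lines group means and bars the SD. The Spp1 values of both STREP males lie below those of all 3 Control animals while the STREP female (308180) lies above 2 of them; for the other 3 genes the groups overlap throughout.

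Spp1 was among the most heavily counted transcripts of the epithelium, with 0.462 to 0.818% of all counts of a library. Taking the animals in replicate order, Control had 245720, 300390 and 344690 normalised counts of Spp1 and STREP had 193800, 158820 and 308180. Both treated males were below every Control animal, and the treated female was above both Control males, so the groups overlapped. In each group the female had the highest value.

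Group means of Spp1 were 296930 ± 49576 in Control and 220260 ± 78121 in STREP (SD, n = 3), with a coefficient of variation of 16.7% and 35.5%. The DESeq2 log2 fold change was -0.43 ± 0.23 (SE), which is 0.742-fold with a 95% interval from 0.545 to 1.01, and its adjusted p was 0.439. The interval holds both no change and a fall of more than 1.5-fold. In edgeR the log2 fold change was also -0.43, with an adjusted p of 0.724. A two-sided exact permutation test of the normalised counts over animals gave p = 0.3, where 3 against 3 animals cannot go below 0.1.

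As a share of the library total, Spp1 stood at 6684, 7276 and 8180 CPM in the Control animals and at 4962, 4624 and 6105 CPM in the STREP animals. On this scale all 3 STREP animals lay below all 3 Control animals. The means were 7380 ± 753 and 5230 ± 776 CPM (SD, n = 3), a ratio of 0.709, with an exact permutation p of 0.1, the smallest the design allows. With library totals as size factors, DESeq2 gave a log2 fold change of -0.50 and an adjusted p of 0.204, so the lack of overlap in CPM did not carry a call with it.

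STREP replicate 3 set the outcome for Spp1. Without this library the DESeq2 log2 fold change was -0.75 ± 0.17 (adjusted p = 0.000675), and Spp1 was called lower, as were 1.4% of the genes tested in that fit. Among the males alone it was -0.63 ± 0.16 (adjusted p = 0.00677), again called, beside 1.14% of genes called lower in that fit. edgeR on the same smaller sets gave the same estimates, -0.75 and -0.63, without a call (adjusted p = 0.184 and 0.439). Both smaller sets held only the STREP males as treated animals. The titles of these males share a stem that the labels do not explain. Both DESeq2 calls thus rest on taking these males as separate animals, as the study's methods give them. With sex as a covariate on all 6 animals the DESeq2 value was -0.47 ± 0.16 (adjusted p = 0.053). Leaving out each of the other 5 animals in turn kept Spp1 uncalled.

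The log2 ratio of STREP to Control was -0.16 between the females and -0.63 between the male means. The sex-by-treatment term of DESeq2 for Spp1, females minus males, was 0.47 ± 0.28 (adjusted p = 0.999), so a difference between the sexes was not shown. With 1 female per group, sex and the individual animal cannot be told apart.

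**Figure D2:**
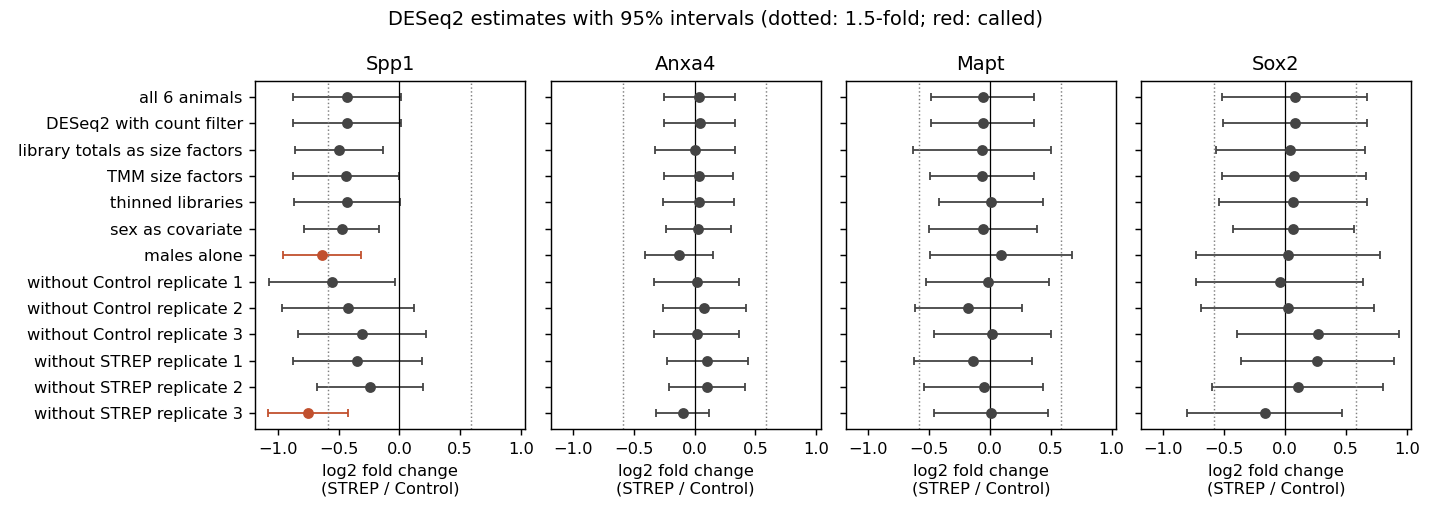
DESeq2 log2 fold changes (STREP over Control, horizontal axes) with 95% intervals for the 4 genes under 13 settings (vertical axis), including each animal left out. Dotted lines mark 1.5-fold and red marks a called gene. Spp1 stays below 0 under every setting shown, from -0.75 to -0.25, and is called only for males alone and without STREP replicate 3; the other 3 genes stay near 0 and are never called.

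Within a group, the order of the Spp1 values was the order of library concentration. In Control, replicate 3 was highest in both, then replicate 2, then replicate 1. In STREP, replicate 3 was highest in both, then replicate 1, then replicate 2. Only STREP replicate 1 lay within the Control range of concentration, so the groups could not be compared at a like concentration. With 34.9% of counts in 100 genes, STREP replicate 1 had 193800, and Control replicate 1, with 31.9%, had 245720. Composition moved with Spp1 within each group, and its part in the difference was not tested.

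**Figure D3:**
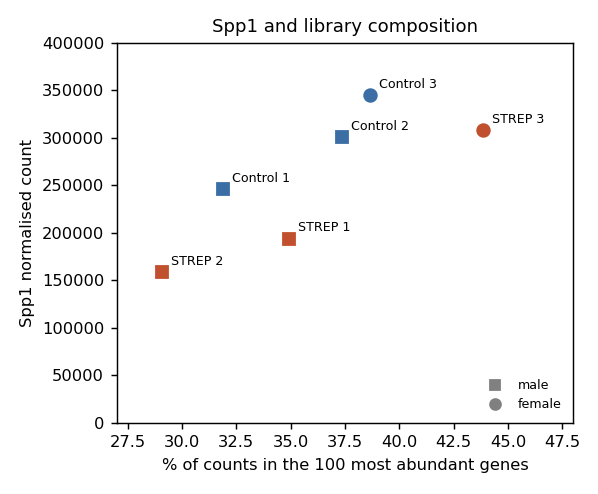
Spp1 normalised count (vertical axis) against the share of counts in the 100 most abundant genes of the same library (horizontal axis, %), 1 point per animal, squares for males and circles for females. In each group Spp1 is higher where the share is higher, and STREP 3, at 43.8%, reaches 308180.

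Anxa4 showed no difference between groups on either scale. Its normalised counts were 11762, 12757 and 11688 in Control and 11297, 11215 and 14709 in STREP, in the order of the replicates. Both STREP males lay just below the Control animals and the STREP female lay above them all. The means were 12069 ± 597 and 12407 ± 1994 (SD, n = 3), and the DESeq2 log2 fold change was 0.04 ± 0.15 (adjusted p = 0.977). Its 95% interval ran from 0.841- to 1.26-fold and so left out a change of 1.5-fold in either direction. In CPM the means were 302 ± 22.1 and 302 ± 20.9. Without STREP replicate 3 the log2 fold change was -0.10, still uncalled. The spread of this marker was wider in STREP (coefficient of variation 16.1%) than in Control (4.95%), a difference that rests on the treated female.

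Mapt gave the same picture at a lower count. The Control animals had 524, 411 and 549 normalised counts and the STREP animals 529, 469 and 428, so the groups interleaved. Here the treated female was the lowest of its group, the opposite of its place for Spp1, Anxa4 and Sox2. Means of 495 ± 73.2 and 475 ± 50.7 (SD, n = 3) went with a log2 fold change of -0.06 ± 0.21 in DESeq2 (adjusted p = 0.977) and an interval from 0.717- to 1.29-fold, again inside 1.5-fold on both sides. A permutation test over animals, exact and two-sided, gave p = 0.8.

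Sox2 was the least counted of the 4 and the least precise. Normalised counts were 239, 264 and 359 in the Control animals and 220, 292 and 399 in the STREP animals. The lowest and the highest of the 6 values were both from STREP, and the female was highest in each group. The means were 288 ± 63.6 and 304 ± 90.5 (SD, n = 3). DESeq2 gave a log2 fold change of 0.08 ± 0.30 (adjusted p = 0.979), with an interval from 0.699- to 1.59-fold, so a rise of 1.5-fold could not be told from no change at this number of animals. Without STREP replicate 3 the estimate was -0.17.

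To ask whether the type I marker moved relative to the type II markers, the log2 ratio of Spp1 to each of them was taken within each animal, where the scaling of the library cancels. Transcript length does not cancel in the height of such a ratio, so only its change between groups is read. The ratio to Sox2 was 10.00, 10.15 and 9.90 in Control and 9.78, 9.08 and 9.59 in STREP. All 3 STREP animals, the female included, were below all 3 Control animals. The mean went from 10.02 ± 0.12 to 9.48 ± 0.36 (SD, n = 3), a difference of -0.53 with an exact permutation p of 0.1, the smallest the design can give. It was -0.58 without STREP replicate 3 and -0.33 without STREP replicate 2.

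For Anxa4 as denominator the ratios were 4.38, 4.56 and 4.88 in Control and 4.10, 3.82 and 4.39 in STREP. The STREP female passed only the lowest Control male here, by a difference smaller than the spread within either group. The means were 4.61 ± 0.25 and 4.10 ± 0.28, a difference of -0.50 (exact permutation p = 0.2, n = 3 per group). Without STREP replicate 3 it was -0.65. Against Mapt the ratios were 8.87, 9.51 and 9.29 in Control and 8.52, 8.40 and 9.49 in STREP, with a difference of -0.42 (9.22 ± 0.32 to 8.80 ± 0.60, exact permutation p = 0.3). The STREP female was next to the highest of all 6 animals for this ratio. Without STREP replicate 3 the difference against Mapt was -0.77, and without STREP replicate 2, STREP replicate 1 or Control replicate 2 it was -0.22, -0.28 and -0.28. Over the 3 ratios compared, the Benjamini-Hochberg adjusted p was 0.3 for each, so none passed. The 3 ratios share Spp1 as numerator and are not separate evidence.

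**Figure D4:**
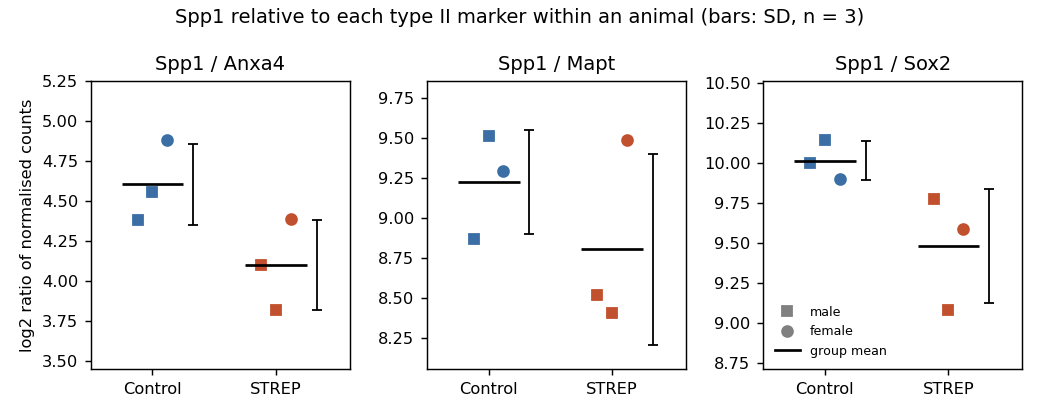
Log2 ratio of the normalised count of Spp1 to that of Anxa4, Mapt or Sox2 (vertical axes, not starting at 0) in each animal. Squares are males, circles females, lines means and bars the SD (n = 3). The mean is lower in STREP for all 3 ratios, by 0.50, 0.42 and 0.53, and only the ratio to Sox2 has no overlap between groups.

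Among other transcripts of type I HCs the picture was not that of Spp1. Of a list of 9 type I markers, 8 were tested and 7 were called lower in STREP, all but Spp1, against 1.37% of genes called lower overall. The list's median log2 fold change was -1.21 beside 0.01 for all genes tested. AC132671.2 (Vsig10l2, an immunoglobulin-domain gene) had 20024 ± 1132 normalised counts in Control and fell to 3080 ± 556 in STREP, which is -2.70 ± 0.16 on the log2 scale. Adam11, a catalytically inactive member of the ADAM family, fell from 31892 ± 347 to 8702 ± 956 (-1.87 ± 0.13). Bmp2, a bone morphogenetic protein ligand, fell by 1.76 on the log2 scale, and Ocm2, an oncomodulin-type calcium buffer, by 1.44. Chgb (chromogranin B of dense-core granules), Atp2b2 (the calcium pump of the stereocilia) and Kcnab1 (a potassium channel beta subunit) fell by 0.98, 0.93 and 0.66. Leaving out STREP replicate 3 moved these 7 values little (-2.57 to -0.80), and edgeR also called all 7. As a fall in these same animals was a condition for the choice of these 7 genes, their count is not independent evidence of a direction. Ocm itself was not analysed here.

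In bulk tissue, fewer cells of a type and less RNA per cell cannot be told apart, and this holds for each list below. Calls in these lists stand beside 1.37% of all tested genes called lower and 1.87% called higher. In lists this short, 1 call is not read as a result about the list.

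Beside Anxa4, Mapt and Sox2, the type II list held 4 more markers, of which 2 were called lower and 0 higher. Chrna9 and Chrna10, the alpha9 and alpha10 subunits of the HC acetylcholine receptor at efferent synapses, fell from 2508 ± 64.5 to 1365 ± 201 and from 11523 ± 985 to 7085 ± 623 normalised counts (log2 fold changes -0.88 ± 0.16 and -0.70 ± 0.13, DESeq2 adjusted p = 3.57e-06 and 2.21e-05). Both subunits are known from other HCs as well. Calb2 (calretinin) had 735 ± 39.8 in Control and 985 ± 10.5 in STREP, a log2 fold change of 0.42 that was not called (adjusted p = 0.13). Kcnj2, an inward rectifier potassium channel, was near the floor of the useful range at 12.8 ± 14.0 and 42.0 ± 26.1 and was not called. Among the 21 pan-HC markers 3 were called lower and 1 higher, with a median of -0.21 (all tested genes: 1.37% lower, 1.87% higher). Loxhd1 and Strc, which serve the hair bundle, and Cabp2, a calcium-binding regulator of HC calcium channels, fell with log2 fold changes of -1.21, -1.35 and -0.89, and Gfi1, a zinc-finger factor of HC differentiation, rose by 1.20; edgeR called Loxhd1 and Gfi1 of these. By the adjusted p alone 6 of the 21 passed, the further ones being Myo7a and Lhfpl5, a subunit of the transduction channel complex, at -0.45 (adjusted p = 0.0161 in DESeq2). The summed normalised counts of the pan-HC list were 164900 to 172380 in Control and 139830 to 201210 in STREP, where replicate 3 was the highest.

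**Figure D5:**
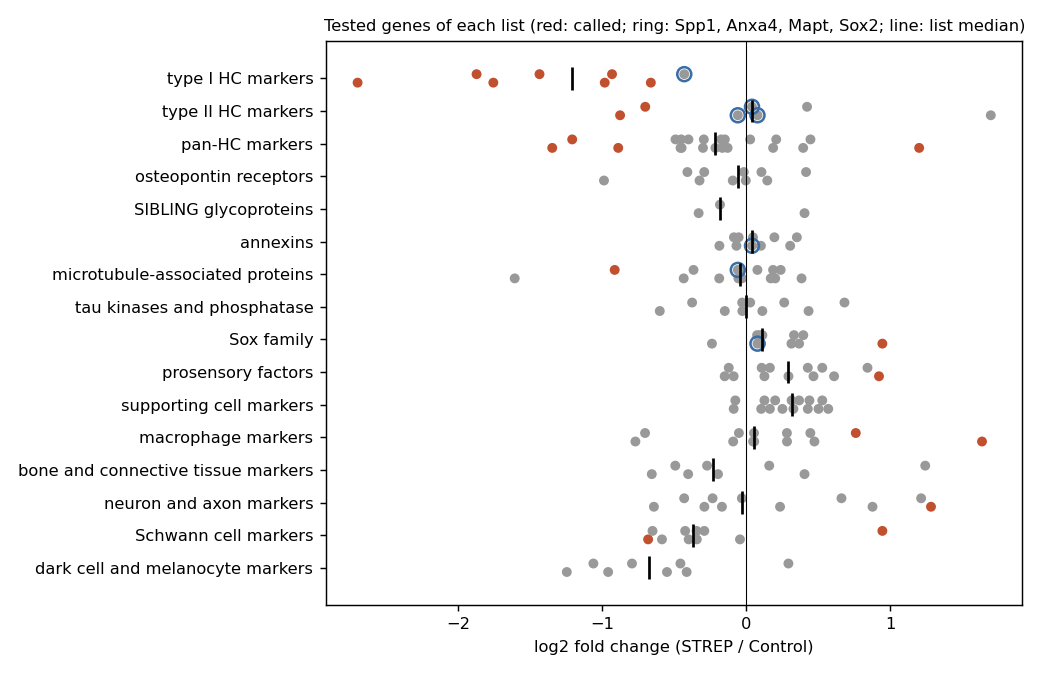
DESeq2 log2 fold changes (STREP over Control, horizontal axis) of every tested gene of 16 lists (vertical axis). Red points are called genes, rings mark Spp1, Anxa4, Mapt and Sox2, and vertical bars are list medians. Spp1 is the type I marker nearest to 0 and the only uncalled gene of its list. The other tested genes of that list were picked as lowered in these animals, among others. Anxa4, Mapt and Sox2 lie within 0.08 of 0.

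The partners and relatives of each marker were also followed. Of the 10 integrins and other receptors that bind osteopontin, 0 were called, with a median of -0.06. Itgb1, the common beta1 integrin, was at 0.15 ± 0.13 and Itgb5 at -0.41 ± 0.18. The other small integrin-binding glycoproteins of the osteopontin family gave 3 tested genes of 4 and 0 calls, with Dmp1, a dentin matrix protein, at -0.33 ± 0.38 and Mepe at -0.18 ± 0.85. In the annexin family, 0 of 10 tested genes were called (median 0.04). Anxa5 was at -0.07 ± 0.23, and Anxa1, the glucocorticoid-induced annexin, at 0.35 ± 0.61 and at -0.45 in males alone.

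Around Mapt, 1 of 15 microtubule-associated genes was called, and it was lower (1.37% of all tested genes were). This was Map9, a mitotic spindle and ciliary microtubule protein, which had 5997 ± 752 normalised counts in Control and 3182 ± 262 in STREP (-0.91 ± 0.15 in log2, DESeq2 adjusted p = 1.96e-07). Map4, the ubiquitous relative of tau, was at 0.17 ± 0.13 and Stmn1, a tubulin-sequestering stathmin, at -0.37 ± 0.21. Of the kinases and phosphatase subunits that act on tau, 0 of 10 were called, with the polarity kinase Mark2 at -0.03 ± 0.17 and Ppp2r2b, a regulatory subunit of protein phosphatase 2A, at -0.15 ± 0.16.

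Within the Sox family 11 genes were tested and Sox10 was the 1 called (1.87% of all tested genes were called higher). Sox10, the factor of neural crest and otic glia that is also present in inner ear epithelium, rose from a normalised count of 5112 ± 1063 to one of 9845 ± 1860 (0.95 ± 0.19 in log2, DESeq2 adjusted p = 0.000104). Sox9 was at 0.37 ± 0.21 (0.03 without STREP replicate 3) and Sox8 at 0.09 ± 0.15. The prosensory genes that act with Sox2 gave 1 call in 13, upward: Notch1, the receptor of lateral inhibition, rose from 7465 ± 761 to 14144 ± 2648 (0.92 ± 0.16, adjusted p = 3.23e-06). edgeR called Sox10 and Notch1 too.

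Sox2 marks supporting cells as well as type II HCs, and 13 of the 15 supporting cell markers were estimated above 0 (median 0.32), though 0 were called. The most heavily counted were Otog (otogelin, of the overlying gelatinous membranes), at 0.50 ± 0.20, and Otoa (otoancorin, of the apical attachment of those membranes), at 0.44 ± 0.22. Without STREP replicate 3 these values were 0.22 and 0.13, while those of the tectorin genes Tecta and Tectb went from 0.32 and 0.57 to 0.38 and 0.45, and that of Prox1, a homeodomain factor, from 0.13 to 0.29. In that fit 12 of 15 were above 0, with a median of 0.18 and 0 calls. The list gained 2 higher calls without Control replicate 3 and 1 without STREP replicate 1 or STREP replicate 2. The summed counts of this list were 574630 to 716490 in Control and 748960, 670340 and 1173100 in STREP replicates 1, 2 and 3. STREP replicate 3 was thus the highest library for this sum, for Sox2 and for Anxa4. Otog, with a mean normalised count of 457100, made up most of the sum, which does not speak for each marker of the list. The part of supporting cells in the Sox2 and Anxa4 values was not tested.

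Cells other than type I HCs can supply Spp1 RNA, and their markers were read next to it. Schwann cell markers had a median log2 fold change of -0.37 with 1 of 10 called lower and 1 higher, and 9 of 10 estimated below 0. Prx (periaxin of peripheral myelin) was the lower call at -0.68 ± 0.21, and Sox10 the higher. Prx was not called in edgeR, and was at -0.56, under the fold threshold, without STREP replicate 3. The list also had no lower call without STREP replicate 2 or without any 1 of the Control animals. The myelin gene Mbp was at -0.59 ± 0.22, uncalled. Summed over the list, the Control libraries had 445140, 638060 and 571400 normalised counts and the STREP libraries 494160, 284530 and 636460. In STREP this sum was ordered as Spp1 was, with replicate 3 highest and replicate 2 lowest. In Control replicate 1 was lowest for both, but replicate 2 was highest for the sum and replicate 3 for Spp1. S100b was the most heavily counted gene of the list, with a mean normalised count of 234820, and weighs most in the sum. No Schwann cell marker was at 0 in all libraries, and the part of these cells in the Spp1 values was not tested.

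Macrophage markers had a median of 0.06, with Cd163 (a haemoglobin scavenger receptor) and Mrc1 (a mannose receptor) called higher at 1.64 ± 0.39 and 0.76 ± 0.21 by DESeq2, neither of them by edgeR. Their sum spanned 15802 to 17869 in Control and 16420 to 19329 in STREP. Bone and connective tissue markers gave 0 of 8 calls (median -0.23; Alpl, alkaline phosphatase, -0.20 ± 0.21; Col1a2, a type I collagen chain, -0.40 ± 0.26). Their sum was 1777 in STREP replicate 3, the STREP library where Spp1 was highest, and 2613 to 3677 in the other 5 libraries. Col1a2, with a mean normalised count of 1482, was the most heavily counted gene of the list. The part of macrophages and bone cells in the Spp1 values was not tested.

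For Mapt, the neuron and axon list gave 1 call in 11. Tubb3 (neuronal beta-tubulin) was higher at 1.28 ± 0.37 by DESeq2 and not by edgeR, and the neurofilaments Nefl and Nefm were at -0.29 ± 0.17 and -0.17 ± 0.17. The list had no call without Control replicate 1, Control replicate 2, STREP replicate 1 or STREP replicate 3. The summed level of this list was 5330 to 6013 in Control and 5248 to 5364 in STREP. Dark cell and melanocyte markers gave 0 of 8 calls with a median of -0.67, and 7 were estimated below 0. The list gained 1 lower call without Control replicate 1, Control replicate 3, STREP replicate 1 or STREP replicate 2. In that list Slc12a2, the chloride cotransporter of endolymph secretion, was at -0.55 ± 0.14 (DESeq2 adjusted p = 0.0035, under the fold threshold) and Pmel, a melanosome protein, at 0.29 ± 0.16. edgeR called 1.77% of the genes it tested over the whole table, against 3.24% in DESeq2.

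The genes whose values followed each marker most closely over the 6 libraries were also listed, as a description by Pearson r of log2 normalised counts among 12131 genes with a mean of at least 100. The points share library depth and composition, and with 6 points a high r is easily reached. For Spp1 they included Nudt16l1 (0.995), Nedd8 (a ubiquitin-like modifier, 0.990), Ldhb (lactate dehydrogenase B, 0.986) and Hpcal1 (a neuronal calcium sensor, 0.984). For Anxa4 they were Prss23, LOC103689983, Arl6ip1, LOC100360316 and Acyp2 (0.984 to 0.994). For Mapt they were Tm9sf4, Cdkn1a, Pdk4, Crym and Clip3 (0.969 to 0.986), and for Sox2 they were Stard6, Ss18l2, Pi4kb, Trim27 and Slc35e4 (0.978 to 0.986). None of the genes named here was called between groups. Between the type II markers themselves r was 0.62 for Anxa4 and Sox2, -0.69 for Anxa4 and Mapt and -0.27 for Mapt and Sox2, so they did not vary as 1 set. Spp1 had r of 0.59 with Anxa4, 0.54 with Sox2 and -0.14 with Mapt.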

How the data were processed

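RNA of pooled utricles and cristae from 6 rats was amplified by the authors with the SMART-seq2 protocol, which primes on poly(A) and keeps no strand, so reads of overlapping or antisense genes could not be told apart. The authors aligned reads to Rnor6.0 with STAR 2.5.3a and deposited RSEM expected counts per gene (version 1.3.0 in the submitters' processing notes; the study's methods give another). All deposited values were whole.

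The counts were fitted over all genes with DESeq2 1.42.0 (R 4.3.3; Wald test, Benjamini-Hochberg adjustment, no covariate), the tool the study used. Following its thresholds, a gene was called at an adjusted p under 0.05 and a change over 1.5-fold. The edgeR 4.0.16 quasi-likelihood test, with edgeR's own expression filter (filterByExpr), was the alternative. A count filter of at least 10 counts in 3 libraries was used in 1 further DESeq2 setting. Within-animal ratios (pseudocount 1) and single values were tested by exact permutation. The fits were tested on simulated data.

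The 4 markers and the 16 gene lists were chosen with earlier results of these data known. Named genes are the 4 markers, the called genes of each list, the 2 most heavily counted members of a list with fewer than 2 calls, and the 5 genes most like each marker; a few that the rule names are not reported here. Myo7a, Otof, Calb2, Kcnj2, Mbp, Lhfpl5, Tecta, Tectb and Prox1, with the supporting cell values without STREP replicate 3, were added after their values were seen. Of 181 list symbols, 6 had no row in the table. No paired replicate numbers were used. The study's methods, not the labels, give 3 separate animals in each group. Same-group libraries differed by more than counting noise, which repeat libraries of 1 RNA could also do. The titles of the 2 STREP males share a stem, and the labels do not say what it marks. The chi-square per degree of freedom of raw counts was lowest for this pair (51.7, against 55.3 for Control replicates 2 and 3). That measure also rises with library depth, and the STREP libraries were shallower, so the ranking does not show this pair to be the most alike. Genome coordinates and sequences were not used here.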

Additional observations from a re-analysis of the deposited data

How the results depend on the processing

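The number of called genes was 527 with DESeq2, 264 with edgeR, 295 with edgeR without a count filter, 309 with library totals as size factors and 82 with the fold threshold inside the test. Leaving out 1 animal gave 424 to 517. Chosen after seeing the data, edgeR gave 276 with sex as covariate, 95 for males alone and 146 without STREP replicate 3. Spp1 kept its direction throughout, at -0.63 for males alone and -0.75 to -0.25 with 1 animal left out. The type II markers, which were never called, changed sign: Anxa4 to -0.12 for males alone (edgeR -0.12; edgeR without STREP replicate 3 -0.10) and -0.10 to 0.10 with 1 animal left out, Mapt to 0.0075 with libraries thinned to equal totals, 0.089 for males alone (edgeR 0.093; edgeR without STREP replicate 3 0.011) and -0.18 to 0.021, and Sox2 to -0.17 in edgeR without STREP replicate 3 and -0.17 to 0.27. Of 56 marker values under other settings, 47 kept direction and call, 1 gained a call and 8 changed sign. Settings that alter only the test or the adjustment, such as the fold threshold inside the test, reuse the main estimate. Their sign could not change, so the 47 include values fixed in direction. The 3 ratio differences stayed below 0 in 9 of 9 settings and in 18 of 18 with 1 animal left out (-0.77 to -0.22). They also stayed within 1 pooled SD of the main value in 9 of 9 settings. With 3 animals a group, leaving out 1 cannot move a difference by a pooled SD, so that criterion tests nothing there. For Mapt that SD (0.48) was larger than the difference itself (-0.42), so the criterion was loose in the other settings too. List counts stayed within 1.5 times in 28 of 32 settings and in 72 of 96 with 1 animal left out, with 6 to 8 calls for the type I list (6 without Control replicate 1 or STREP replicate 1) and 2 to 3 for the type II list. The median of all genes shifted by under 0.1 in every setting, which size factors that centre most genes near 0 largely ensure. No paired analysis was possible because the titles give no replicate numbers shared between groups. With 3 animals a group, permutation tests cannot pass 0.05. Whether deeper libraries would narrow the intervals was not tested.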
